A study of Mus musculus with 8 samples.

Results

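The data compare mouse embryonic stem cells that received 1 mM L-proline alone with untreated cells of the same experiment, on day 2 and on day 5. All were ESCs of strain 129/SvP plated at low density in medium with fetal bovine serum and leukaemia inhibitory factor (FBS/LIF), the cytokine that maintains self-renewal in culture. The 4 groups are L-proline day 2, L-proline day 5, untreated day 2 and untreated day 5, with 1 reduced representation bisulfite sequencing (RRBS) library each, out of 8 libraries in the series; the other 4 cultures received 500 µM vitamin C, with or without L-proline. The members are the 692306 CpGs on chromosomes 1 to 19 that all 4 libraries list at 10 or more reads, of 1002817 listed in any of the 8 libraries. No group has a replicate, and the labels name no culture or batch, so the 2 days are the only repeat of the comparison and p-values below compare libraries, not conditions.

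Cytosine methylation at CpG sites is written by the de novo enzymes DNMT3A and DNMT3B and copied after replication by DNMT1 with UHRF1, while TET enzymes oxidise it and replication without copying dilutes it. In embryonic stem cells the level is unusually changeable: cells in serum hold a mixture of more and less methylated states, whereas CpG-dense promoters are mostly kept free of the mark. L-proline is an amino acid that is known to move mouse embryonic stem cells towards an early primed, motile, mesenchymal-like state. RRBS reads CpG-rich restriction fragments, so dense promoters are over-represented, and it does not tell 5-methylcytosine from 5-hydroxymethylcytosine.

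The promoters below show the kinds of sequence on which the gene results turn: 4 promoters of the germline list whose methylation was higher with L-proline on both days, the Atf7ip promoter, which was also higher, and the Tet2 promoter, a dense one that stayed near 0. Each is the 250 bases before the start of the gene in RefSeq's GRCm38.p6, on the strand of the gene. Higher and near 0 refer to the whole promoter windows examined below, which run on past the gene start. The printed Atf7ip stretch holds 4 of its 12 listed CpGs, and on day 2 these were not all higher. Capitals mark the CpGs that all 4 libraries list; CpGs in lower case were not listed in all of them.
Hormad1: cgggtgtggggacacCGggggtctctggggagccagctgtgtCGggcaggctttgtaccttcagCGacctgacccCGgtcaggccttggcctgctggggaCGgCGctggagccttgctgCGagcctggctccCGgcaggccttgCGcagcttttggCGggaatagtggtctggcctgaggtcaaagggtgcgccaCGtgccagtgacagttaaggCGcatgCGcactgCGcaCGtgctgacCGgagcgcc
Slc25a31: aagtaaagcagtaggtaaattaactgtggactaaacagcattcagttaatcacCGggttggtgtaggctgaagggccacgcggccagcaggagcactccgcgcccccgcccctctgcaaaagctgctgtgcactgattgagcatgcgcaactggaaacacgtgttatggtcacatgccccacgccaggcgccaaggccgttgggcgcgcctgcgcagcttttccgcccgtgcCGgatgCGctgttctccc
Asz1: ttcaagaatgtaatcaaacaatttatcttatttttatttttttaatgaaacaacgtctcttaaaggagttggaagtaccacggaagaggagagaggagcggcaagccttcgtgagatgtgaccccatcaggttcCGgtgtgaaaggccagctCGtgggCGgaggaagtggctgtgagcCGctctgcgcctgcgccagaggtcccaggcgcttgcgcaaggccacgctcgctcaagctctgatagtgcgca
Ddx4: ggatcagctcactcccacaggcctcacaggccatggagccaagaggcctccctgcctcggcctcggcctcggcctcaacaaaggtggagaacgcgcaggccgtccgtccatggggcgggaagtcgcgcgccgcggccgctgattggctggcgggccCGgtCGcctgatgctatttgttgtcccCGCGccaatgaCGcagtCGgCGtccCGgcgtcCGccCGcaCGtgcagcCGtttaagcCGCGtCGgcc
Atf7ip: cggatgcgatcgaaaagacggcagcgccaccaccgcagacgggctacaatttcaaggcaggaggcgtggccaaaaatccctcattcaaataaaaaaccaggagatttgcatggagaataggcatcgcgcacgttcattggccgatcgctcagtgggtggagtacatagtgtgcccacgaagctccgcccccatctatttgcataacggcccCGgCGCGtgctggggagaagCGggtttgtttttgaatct
Tet2: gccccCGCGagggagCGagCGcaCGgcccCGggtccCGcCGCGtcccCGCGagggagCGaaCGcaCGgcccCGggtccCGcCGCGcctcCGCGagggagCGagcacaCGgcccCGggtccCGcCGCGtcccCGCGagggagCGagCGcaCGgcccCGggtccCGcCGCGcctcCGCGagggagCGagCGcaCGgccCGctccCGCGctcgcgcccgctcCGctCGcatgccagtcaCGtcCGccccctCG
These stretches lie at chr3:95559427-95559676 (plus strand) for Hormad1, chr3:40708621-40708870 (plus) for Slc25a31, chr6:18109062-18109311 (minus) for Asz1, chr13:112652311-112652560 (minus) for Ddx4, chr6:136518601-136518850 (plus) for Atf7ip and chr3:133544391-133544640 (minus) for Tet2, all in GRCm38.p6. The printed Hormad1 stretch holds 19 CpGs, of which 16 are listed, while the Tet2 stretch holds 51, of which 48 are listed. The E-box CACGTG occurs 2 times in the Hormad1 stretch, 1 time in that of Slc25a31 and 1 time in that of Ddx4. The E2F-type motif GCGGGAA, searched on both strands, occurs 1 time each in Hormad1 and Ddx4. The other stretches hold neither, which says only that these letters are not in the window.

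Methylation was higher with L-proline on each day, by about the same amount. The mean over CpGs was 24.9% in L-proline cells against 22.4% in untreated cells on day 2, and 27.8% in L-proline cells against 24.8% in untreated cells on day 5. The differences were 2.52 and 2.96 percentage points, a mean of 2.74 ± 0.31 (SD, n = 2 days). An exact two-sided sign-flip test over 2 pairs cannot give a p below 0.5, which is the value it gave, so this test could not pass at any size of difference. The lower L-proline value, 24.9% on day 2, lay just above the higher untreated value, 24.8% on day 5. Both L-proline libraries held fewer CpGs of intermediate level, between 20% and 80%, with 11.7% and 10.7% of CpGs on day 2 and day 5, against 14.6% and 12.05% in untreated cells. They held more CpGs at 80% or above, with 19.3% and 22.6% in L-proline cells against 14.9% and 18.9% in untreated cells. Summed over listed CpGs, coverage was 33240239 and 31769429 reads in L-proline cells against 33400832 and 26478716 in untreated cells. Median coverage of the CpGs compared was 36 and 36 reads against 37 and 29, so the untreated day 5 library was the shallowest. Sums of reads over CpGs, here and below, count a read once at each listed CpG it covers. Of the reads on the lambda contig, which in most protocols is added without methylation, 0.475% and 0.490% were methylated in L-proline cells against 0.293% and 0.513% in untreated cells.

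At single CpGs, the reads of the 2 libraries of a day were set against each other by Fisher's exact test (two-sided, Benjamini-Hochberg adjusted over all CpGs), which called a difference of at least 20 points almost only upwards. On day 2, 679 CpGs were called higher (0.0981% of those tested) and 6 lower (0.000867%). On day 5, 4725 were called higher (0.683%) and 52 lower (0.00751%). Only 42 CpGs were called higher on both days (0.00607%), and 0 were called lower on both. At an unadjusted Fisher p under 0.05 on both days, the counts were 6539 higher (0.945%) and 48 lower (0.00693%). Taken singly, day 2 had 4.51% of CpGs higher and 0.397% lower at that p, whereas day 5 had 6.03% and 0.553%. Without a test, 9964 CpGs were at least 20 points higher on both days (1.44%), and 174 were at least 20 points lower on both (0.0251%). At 10 points the counts were 39109 (5.65%) and 1956 (0.283%), and at 30 points 2066 (0.298%) and 14 (0.00202%). On a single day, 35897 CpGs were 20 points higher and 3852 lower on day 2 (5.19% and 0.556%), and 44498 higher and 5160 lower on day 5 (6.43% and 0.745%).

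The 5 largest gains among the 42 CpGs called on both days are given with their position in mm9, the build of the files. At position 134349551 of chromosome 4, L-proline cells had 55.0% and 69.4% methylated reads on day 2 and day 5, against 0% and 14.0% in untreated cells, over 21 to 43 reads. The 95% Wilson interval of the 0% value reaches 15.5%. At 37422943 of chromosome 19 the values were 75.0% and 96.0% with L-proline against 18.2% and 43.8% without. At 64789853 of chromosome 1 they were 50% and 89.5% in L-proline cells against 0% and 16.7% in untreated cells, 5.53 kb from the placed start of Fzd5, which encodes a Wnt receptor. The CpG at 24300106 of chromosome 8 had 63.0% and 61.0% with L-proline against 6.45% and 14.3% without, and that at 35747210 of chromosome 11 had 58.5% and 87.3% against 13.3% and 25%. In all 5, both L-proline values lay above both untreated values, an order that choosing the largest differences favours. All 5 lie in 1 kb tiles with 2 to 10 listed CpGs.

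A gain on day 2 was followed by a gain on day 5 at a minority of sites, and the share depended on the level in untreated cells. The 2 days share no library, so the day 5 values are independent of those that chose the sites on day 2. The untreated library that sets the class here also enters the difference that chose the sites. Within a class, CpGs that gained and the rest can therefore differ in true level, and the part of this in the shares was not tested. CpGs at least 20 points higher on day 2 were on average 11.4 points higher on day 5, and 27.8% of them were again at least 20 points higher, against 5.26% of the other CpGs. Among CpGs under 5% in untreated cells on day 2, 40.9% of the 1844 that gained repeated the gain on day 5, against 0.963% of the rest. In the class of 5 to 20% the shares were 48.8% and 16.9%, and in that of 20 to 40% they were 41.7% and 35.1%. From 40% upwards, reading day 5, the order turned: 25.8% of CpGs that gained on day 2 repeated the gain, against 29.3% of the rest, in the class of 40 to 60%, and 10.7% against 15.8% in that of 60 to 80%. Choosing on day 5 and reading day 2 gave 4.37% against 0.0585% under 5%, 13.4% against 1.88% at 5 to 20%, and 25.9% against 12.8% at 20 to 40%. In this direction the order did not turn at 40 to 60%, with 33.6% against 19.5%; it was 23.3% against 24.0% at 60 to 80% and 16.6% against 13.1% at 80 to 95%.

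The size of the difference followed the starting level, read from the untreated library of the other day so that no library both set a class and entered its difference. On day 2 the largest class means were at CpGs of 40 to 60% and 60 to 80%. There L-proline cells averaged 50.7% and 74.2%, against 40.7% and 64.3% in untreated cells. On day 5 the largest was at 20 to 40%, with 55.7% in L-proline cells against 41.8% in untreated cells. Classes are named by the level of the other day. On the day itself, untreated cells averaged 40.7% in the day 2 class of 40 to 60% and 41.8% in this one. The change of class between the days is therefore not by itself a shift in starting level. CpGs under 5% differed by 0.18 points on day 2 and 0.74 on day 5, although they make up most of the set. On the lambda contig, 4 of 842 reads were methylated in the L-proline day 2 library against 9 of 3067 in the untreated one, shares that differ by about as much as the day 2 value under 5%; the part of incomplete conversion in that value was not tested. CpGs of 95% or above were 4.57 points higher on day 2 and 2.40 on day 5.

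**Figure D1:**
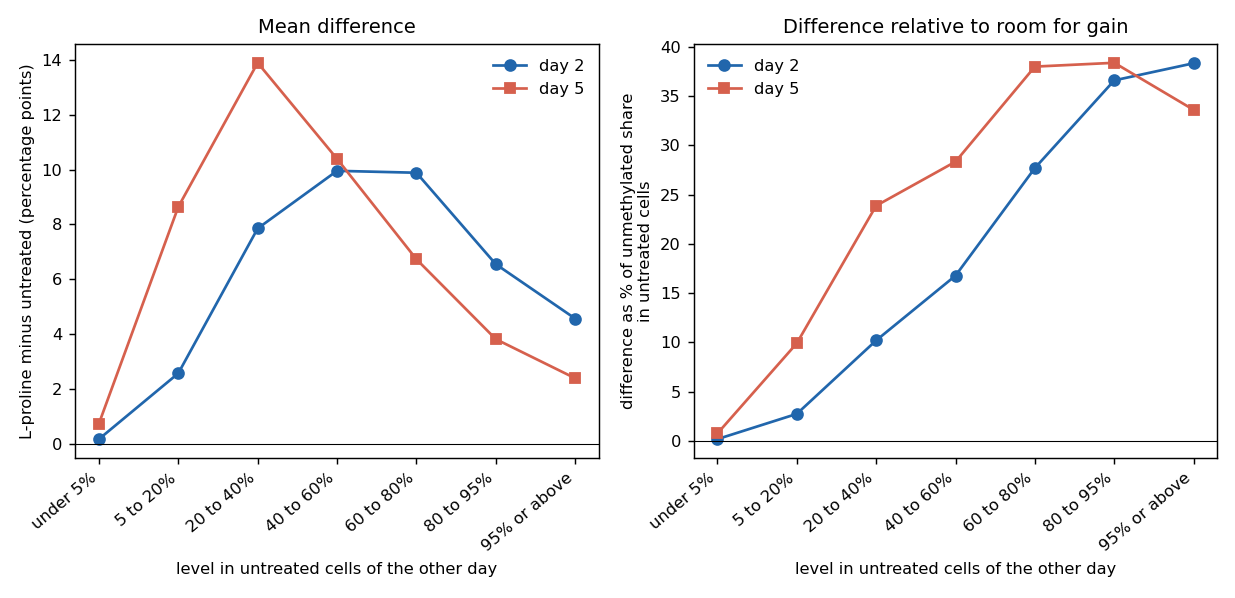
Left, the mean difference between L-proline and untreated cells in percentage points, by the level of the CpG in the untreated library of the other day, for day 2 (circles) and day 5 (squares). Right, the same difference as a percentage of the share of reads unmethylated in untreated cells; the left curves peak at intermediate levels, at 9.95 points on day 2 and 13.9 on day 5, whereas the right curves climb to 38.4% on both days.

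Set against the reads that were still unmethylated in untreated cells, the difference grew with the level up to the class of 80 to 95%. It was 0.18% of them on day 2 and 0.753% on day 5 under 5%, 10.2% and 23.9% at 20 to 40%, 27.7% and 38.0% at 60 to 80%, and 36.6% and 38.4% at 80 to 95%. Lowly methylated CpGs therefore took up the smallest share of the room they had, also on day 5. Classing the CpGs by the mean of the vitamin C libraries, which enter no difference here, gave the largest mean differences at 20 to 40% on day 2, 11.1 points, and at 5 to 20% on day 5, 12.9 points. Classed in this way, 10.3% of CpGs of 20 to 40% were 20 points higher on both days, 8.03% of those of 5 to 20%, and 0.191% of those under 5%.

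The CpGs 20 points higher on both days averaged 63.0% and 78.9% in L-proline cells on day 2 and day 5, against 33.1% and 46.1% in untreated cells; these levels were part of the choice and are a description. Their lowest coverage over the 4 libraries had a median of 17 reads, against 25 for all CpGs, and was under 20 reads at 60.4% of them, against 33.4%. Of these 9964 CpGs, 83.4% lie in 1 kb tiles with 10 or fewer listed CpGs, against 34.0% of all CpGs, and 4.13% lie in tiles with 21 or more, against 53.8% of all. The libraries with vitamin C played no part in the choice. At these CpGs cells with L-proline plus vitamin C were 8.26 points above cells with vitamin C alone on day 2 and 12.3 points above them on day 5, against 1.48 and 1.75 points over all CpGs. They were higher on both days at 54.7% of them and lower on both at 7.05%, against 14.8% and 5.90% of all CpGs. The sets differ in level. By the mean of the vitamin C libraries, 10.5% of the repeated gains were under 5%, against 71.3% of all CpGs. CpGs of like level were not compared.

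Repeated gains were more frequent close to another repeated gain. A listed CpG 2 to 50 bp from a repeated gain was itself a repeated gain in 16.4% of pairs, and one 51 to 200 bp away in 10.8%. The share was 5.06% beyond that up to 500 bp, 2.95% up to 1000 bp and 1.92% up to 5000 bp, against 1.44% of all CpGs. All CpGs are not a like set, since 83.4% of the repeated gains lie in tiles with 10 or fewer listed CpGs. In the density classes of such tiles, 3.25% to 3.69% of CpGs were repeated gains, and the shares beyond 500 bp lay below this. Starting level was not matched. Neighbouring CpGs can lie on the same reads, so near pairs are not independent measurements.

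CpG density separated the differences before the starting level was taken into account. In tiles with 1 or 2 listed CpGs, L-proline cells had 73.6% and 79.1% on day 2 and day 5, against 66.8% and 72.5% in untreated cells. In tiles with 11 to 20 they had 16.8% and 20.2% against 14.6% and 16.9%, and in tiles with 41 or more 1.04% and 1.41% against 0.877% and 1.05%. Among CpGs of 20 to 80%, the difference varied less with density: 8.93 and 8.24 points on day 2 and day 5 with 1 or 2 listed CpGs, 9.82 and 10.2 with 6 to 10, and 6.16 and 9.05 with 41 or more. Among CpGs under 5% it depended on density on both days. There L-proline cells had 3.83% and 12.8% against 2.34% and 5.02% in untreated cells with 1 or 2 listed CpGs, and 0.660% and 0.940% against 0.581% and 0.710% with 41 or more.

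**Figure D2:**
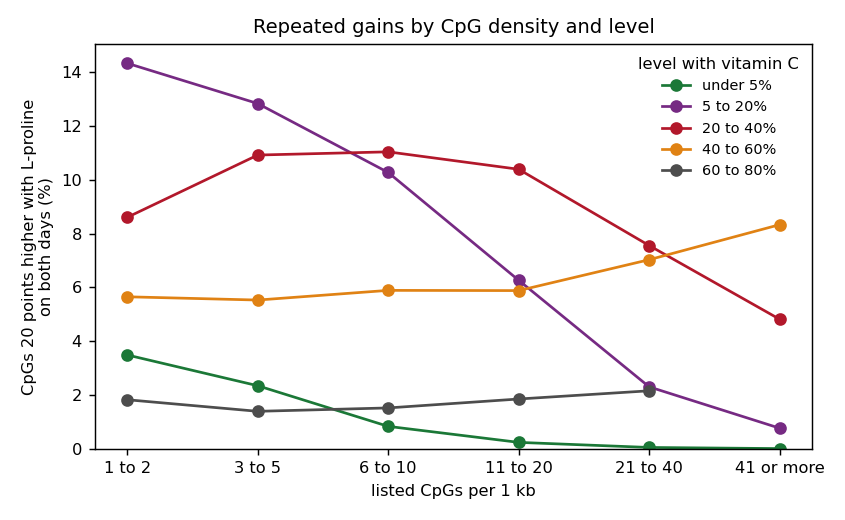
Share of CpGs at least 20 points higher with L-proline on both days (vertical axis, %) by the number of listed CpGs in the 1 kb tile, in separate lines for the mean level in the 2 vitamin C libraries, which enter no difference. The line for 5 to 20% runs from 14.3% in the sparsest tiles to 0.766% in the densest and that for under 5% from 3.49% to 0.00768%, while the line for 40 to 60% stays between 5.53% and 8.33%; classes with few CpGs are left out.

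The same contrast was seen with distance from a CpG-dense tile, here one with 20 or more listed CpGs. Inside dense tiles L-proline cells averaged 1.88% and 2.54% on day 2 and day 5, against 1.57% and 1.90% in untreated cells. At 1 to 2 kb from one they averaged 38.0% and 45.4% against 32.8% and 37.8%. Beyond 100 kb they averaged 67.6% and 72.5% against 62.1% and 67.2%. The differences were 0.32 and 0.64 points inside, 1.58 and 2.90 within 1 kb, 5.27 and 7.58 at 1 to 2 kb, and 5.52 and 5.29 beyond 100 kb, so that the day 5 difference was largest in the class of 1 to 2 kb and the day 2 difference was flat from 1 kb outwards. Among CpGs under 20% on the other day, the day 5 difference was 0.51 points inside dense tiles, 1.94 within 1 kb of one, and 6.54 at 1 to 2 kb. It was 5.51 to 6.08 points farther out, and the day 2 values of the first 3 classes were 0.19, 0.62 and 2.00. Untreated cells averaged 1.16%, 2.81% and 7.18% on day 5 in these 3 classes, so their level was not equal. The part of level in these differences was not tested.

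**Figure D3:**
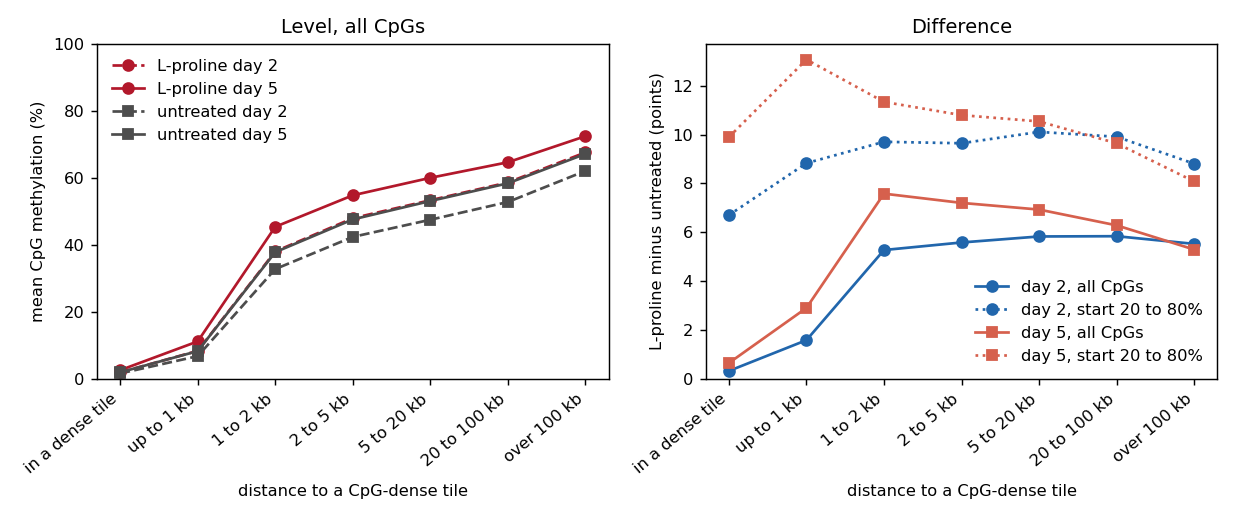
Left, mean CpG methylation (%) by distance from the nearest tile with 20 or more listed CpGs, for L-proline (red) and untreated (grey) cells on day 2 (dashed) and day 5 (solid). Right, L-proline minus untreated in percentage points for all CpGs (solid) and for CpGs of 20 to 80% in untreated cells of the other day (dotted); the step between dense tiles and 1 to 2 kb away seen for all CpGs, 0.64 to 7.58 points on day 5, is 9.90 to 11.3 points for CpGs of intermediate level.

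No chromosome stood apart. The mean difference was positive on all 19 on both days and ran from 2.25 points on chromosome 3 to 2.76 on chromosome 5 on day 2, and from 2.58 on chromosome 3 to 3.19 on chromosome 10 on day 5. CpGs in the first 5 Mb of the chromosomes differed by 2.15 and 2.72 points and those in the last 5 Mb by 2.50 and 2.998, against 2.53 and 2.96 in between.

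Summed over 1 kb tiles with 3 or more CpGs, 34277 of 58608 tiles were higher with L-proline on both days (58.5%) and 4157 were lower on both (7.09%). By at least 10 points, 5098 were higher on both days (8.70%) and 15 lower (0.0256%). By at least 20 points, 674 were higher (1.15%) and 1 lower (0.00171%), and by at least 30 points 46 were higher (0.0785%) and 0 lower. A limma fit of log2 methylated over unmethylated reads in the 4 libraries, with day as a block, called 0 tiles in either direction (0% of tiles), and its smallest adjusted p was 0.273. It has 1 residual degree of freedom per tile. At an unadjusted p under 0.05 it gave 9447 tiles higher (16.1%) and 507 lower (0.865%). The median tile was 0.59 higher on this log2 scale, and with each library centred to one median the unadjusted counts were 1757 higher (2.998%) and 2359 lower (4.03%).

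The 10 tiles with the largest repeated gains had 4 to 6 listed CpGs and 58 to 211 reads per library, summed over CpGs. The largest, chr8:82319001-82320000 in mm9, had 56.7% and 90.4% methylated reads in L-proline cells on day 2 and day 5, against 16.0% and 51.4% in untreated cells. In limma its log2 ratio was 2.89 ± 0.47 (SE) higher, with an adjusted p of 0.273. The tile chr10:69757001-69758000 had 44.4% and 78.4% in L-proline cells against 7.08% and 20% in untreated cells, the lowest untreated levels among the 10. It lies between the placed promoters of Slc16a9, a monocarboxylate transporter family gene, and Fam13c, 49.0 kb and 146 kb away. The tile chr6:125125001-125126000 had 67.6% and 94.9% with L-proline against 33.0% and 44.3% without, 15.6 kb from the placed promoter of Ncapd2, a condensin subunit gene. In all 10, both L-proline values lay above both untreated values. Choosing the largest differences of each day favours this order, so it is a description.

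The other 7 gains were alike in level. The tile chr19:21812001-21813000 had 55.2% and 87.4% in L-proline cells against 16.7% and 45.5% in untreated cells. The tiles chr8:112648001-112649000 and chr8:113276001-113277000 had 53.8% and 79.4%, and 66.7% and 84.3%, in L-proline cells, against 17.5% and 31.7%, and 30.6% and 44.8%, in untreated cells. The tile chr2:163437001-163438000 had 64.1% and 67.3% against 24.5% and 32.9%, and chr2:154162001-154163000, 35.5 kb from the placed promoter of Cdk5rap1, had 58.6% and 65.0% against 25% and 25.9%. The remaining ones were chr10:115273001-115274000, with 62.5% and 71.2% against 15.7% and 37.1%, and chr8:34956001-34957000, with 63.7% and 75.8% against 28.1% and 42.1%. On day 5 all 10 tiles were at 65.0% to 94.9% in L-proline cells and at 20% to 51.4% in untreated cells.

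**Figure D4:**
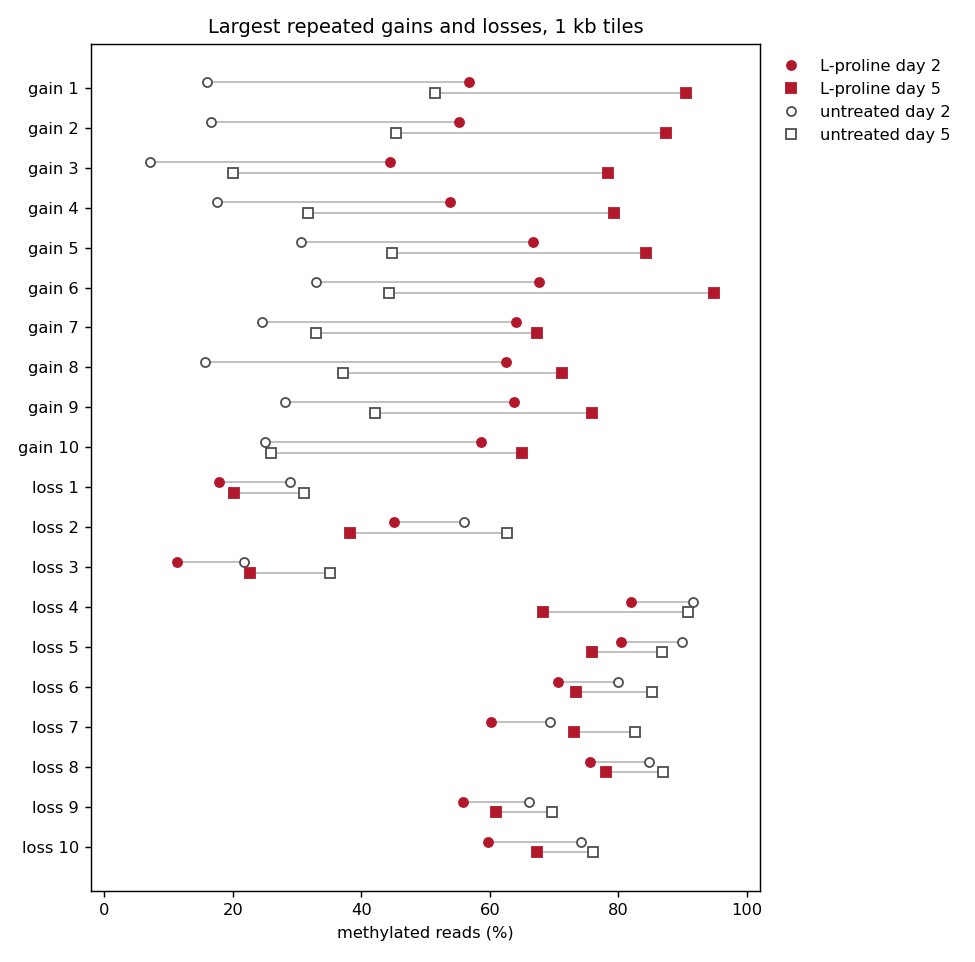
Methylated reads (%) in the 1 kb tiles with the largest repeated gains and the largest repeated losses, in order of rank, for L-proline (filled red) and untreated (open) cells on day 2 (circles) and day 5 (squares), joined within a day. The gain tiles differ by 33.6 to 58.4 points on each day and the loss tiles by 8.63 to 24.4 points, and in 2 loss tiles the groups overlap.

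Losses on both days were few and, like the repeated gains, mostly at low coverage. The 174 CpGs at least 20 points lower on both days averaged 39.95% and 41.5% in L-proline cells, against 66.5% and 70.3% in untreated cells. Their lowest coverage had a median of 14 reads. Of these losses, 74.1% were under 20 reads in at least 1 library, against 60.4% of the repeated gains and 33.4% of all CpGs. They lie in 170 different tiles. In pairs with a listed CpG 2 to 50 bp away, that CpG was also a repeated loss in 6 of 395 (1.52%), and at 51 to 200 bp in 4 of 292 (1.37%), against 0.0251% of all CpGs. In pairs beyond 200 and up to 20000 bp apart it was in 0. All CpGs are not a like set here either, since 77.0% of the repeated losses lie in tiles with 10 or fewer listed CpGs. In the density classes of such tiles, 0.0499% to 0.0675% of CpGs were repeated losses. The near pairs of losses are few, and neighbouring CpGs can lie on the same reads. A loss on day 2 did not carry over on average: the 3852 CpGs at least 20 points lower on day 2 were 7.91 points higher on day 5, 65.0% of them were higher, and 4.52% repeated the loss, against 0.724% of the rest. At the 104 repeated losses listed in all 8 libraries, cells with L-proline plus vitamin C were 3.57 and 3.95 points above cells with vitamin C alone, so the loss was not seen there on average.

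Among CpGs with 30 or more reads in the 4 libraries, the largest repeated loss was at position 43944096 of chromosome 10 (mm9), with 22.2% and 30% in L-proline cells against 58.1% and 67.6% in untreated cells. Its Fisher's exact test gave adjusted p of 0.254 on day 2 and 0.240 on day 5. The next was at 68356686 of chromosome 17, with 47.1% and 53.3% in L-proline cells against 72.7% and 78.8% in untreated cells, and an adjusted p of 0.694 and 0.819 in the same exact test. The third was at 91488153 of chromosome 2, with 65.6% and 60% against 88.6% and 87.9%, and the others were at 70661055 of chromosome 18, with 33.3% and 22.0% against 54.0% and 51.4%, and at 59235397 of chromosome 3, with 49.1% and 50% against 69.7% and 78.4%. None of the 5 passed the exact test on either day.

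Of tiles, the largest repeated loss with at least 50 reads in each library was chr11:61485001-61486000, with 17.8% and 20.1% in L-proline cells against 28.9% and 31.1% in untreated cells. The tile chr1:76176001-76177000 had 45.1% and 38.2% with L-proline against 55.9% and 62.6% without. The tile chr5:77451001-77452000, 5.95 kb from the placed promoter of Thegl, had 81.9% and 68.3% in L-proline cells against 91.7% and 90.8% in untreated cells, with an adjusted p of 0.273 in limma. In 8 of the 10 loss tiles both L-proline values lay below both untreated values, an order that the choice of tiles also favours. In chr19:42114001-42115000 and chr8:107176001-107177000 they overlapped. The loss tiles held 3 to 5 listed CpGs, and their smaller daily difference was 8.63 to 10.9 points, against 33.6 to 39.0 in the gain tiles.

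Promoters were examined as the 300 bases from 250 before to 50 after a RefSeq start, placed in the files by the spacing of their CpGs, with at least 3 CpGs listed in the 4 libraries. Of 6038 placed promoters, 48 were at least 5 points higher with L-proline on both days (0.795%) and 0 were at least 5 points lower on both (0%). By at least 10 points 18 were higher (0.298%) and 0 lower. Most promoters had little methylation to begin with: 5021 were under 1% in untreated cells on day 2, and on day 5 these averaged 0.671% in L-proline cells against 0.541% in untreated cells. The 187 promoters at 5% or above in untreated cells on day 2 averaged 30.1% in L-proline cells on day 5 against 23.0% in untreated cells. Of these 187, 157 were higher with L-proline on day 5, and 43 (23.0%) were among the 48. CpG content differed too, with a median of 17.5 CpGs in the 300 bases of the 48, 19 in the 187 and 28.5 in all placed promoters.

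The germline list, genes whose promoters are methylated in somatic cells and which act in germ cells, had the members with the largest values. Of its 12 genes 5 were placed, and 4 of these were among the 48. All 5 were at or above 5% in untreated cells on day 2, where 23.0% of promoters were among the 48. Hormad1, Slc25a31 and Asz1 were at 20 to 60%, where 13 of 37 promoters were among the 48. Ddx4 and Mael were at 5 to 20%, where 26 of 136 were. The share of the list is read against these, and the list was chosen with earlier results known. Hormad1 encodes a protein of the meiotic chromosome axis. It had 46.8% and 60.9% in L-proline cells on day 2 and day 5, against 32.9% and 40.7% in untreated cells. Summed over its CpGs, it had 432 to 686 reads per library, with 16 to 72 at each CpG. In the stretch printed above, 13 of its 16 listed CpGs were higher with L-proline on both days and 0 lower on both. Slc25a31, the ADP/ATP carrier of the male germ line, had 43.0% and 57.8% with L-proline against 31.0% and 41.7% without. In both genes each L-proline value lay above both untreated values.

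Asz1, a germ-cell protein of the piRNA pathway that silences transposons, had 75.9% and 84.4% in L-proline cells against 58.8% and 76.4% in untreated cells. Ddx4, the germ-cell RNA helicase also called Vasa, had 13.7% and 17.8% against 8.27% and 11.98%, over 526 to 810 reads, and 6 of its 19 listed CpGs were higher and 2 lower on both days. The median of its CpGs was 8.22% in L-proline cells against 8.70% in untreated cells on day 2, and 15.2% against 10.5% on day 5. Its day 2 gain was thus seen in summed reads and not in the median CpG. Mael, another piRNA pathway gene, had 16.6% and 22.5% against 11.5% and 22.0%, so its difference was 5.13 points on day 2 and 0.54 on day 5. In Asz1 the 75.9% of L-proline day 2 lay below the 76.4% of untreated day 5, so the groups overlap when the days are pooled, and they do so in Mael as well.

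The other lists had few placed members and none among the 48. Of the methylation machinery, 7 of 9 genes were placed: the methyltransferases Dnmt1, Dnmt3a and Dnmt3b, the cofactor Uhrf1, the oxidases Tet2 and Tet3, and the glycosylase Tdg. All were at or under 0.932% in the 4 libraries. Tet2, printed above, had 0.496% and 0.539% in L-proline cells against 0.501% and 0.206% in untreated cells over its 54 listed CpGs. Of naive pluripotency genes 3 of 15 were placed, Klf2, Sox2 and Tfcp2l1, with a highest value of 4.17% in untreated cells at Sox2 on day 2 over 72 reads. Of early differentiation genes 1 of 12 was placed, the growth factor gene Fgf5, with 0.794% and 1.29% against 1.06% and 0.912%. Of genes of proline metabolism and amino acid stress 5 of 17 were placed: Ddit3, a stress transcription factor, Slc38a2, an amino acid transporter that carries proline, and P4ha1, P4ha2 and P4hb, the subunits of collagen prolyl hydroxylase. Their highest value was 1.91%, in P4ha2 in L-proline cells on day 5, against 0.581% in untreated cells.

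Of imprinted genes 4 of 15 were placed. Grb10 had 0.707% and 0.929% in L-proline cells against 0.698% and 0.108% in untreated cells, and Igf2r had 1.65% and 1.13% against 0.719% and 0.422%. At Plagl1, a zinc finger gene of a paternally expressed locus, L-proline cells had 43.1% and 51.4% on day 2 and day 5, against 57.2% and 28.8% in untreated cells. At Zrsr1, a paternally expressed splicing factor gene, they had 19.5% and 29.2% against 27.6% and 22.8%. Both were lower with L-proline on day 2 and higher on day 5, so neither repeats.

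Among the remaining promoters of the 48, named after their values were seen, were further genes of the germ line. Sohlh2, a germ-cell transcription factor, had 27.8% and 52.1% in L-proline cells against 17.1% and 23.0% in untreated cells. Gpat2, a testis-expressed acyltransferase gene, had 19.9% and 46.5% against 9.74% and 17.8%. Sycp1, which forms the transverse filaments of the synaptonemal complex, had 67.0% and 81.1% against 60.6% and 72.7%. Sycp2l had 17.6% and 29.7% against 8.61% and 17.1%, Dmrtb1, a testis transcription factor, 24.4% and 32.8% against 18.1% and 25.6%, and Rpl39l, a testis ribosomal protein gene, 41.9% and 43.0% against 27.3% and 32.9%.

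Others of the 48 have roles outside the germ line. Atf7ip, a partner of the histone methyltransferase SETDB1, had 42.1% and 40.7% in L-proline cells against 29.8% and 28.2% in untreated cells, and shares its 12 listed CpGs with the opposite gene Gm44140. At this promoter the vitamin C libraries had 6.09% and 1.17%. The Atf7ip stretch printed above holds 4 of the 12 CpGs. There L-proline minus untreated was 11.3, -32.1, 9.23 and -20.2 points on day 2. On day 5 it was 10.1, 10.1, 7.29 and 9.58 points. The signs in that stretch were therefore mixed on day 2, and the gain stated is that of all 12 CpGs summed. Gata2, a blood and endothelial transcription factor, had 11.5% and 11.1% against 4.62% and 5.99%. Sphk1, a sphingosine kinase gene, had 18.4% and 31.0% against 12.96% and 21.9%. The CACGTG motif was in 9 of the 48 promoters (18.75%) against 10.9% of all placed promoters, and GCGGGAA in 9 of 48 against 10.7%; a match is a description and not a bound site.

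**Figure D5:**
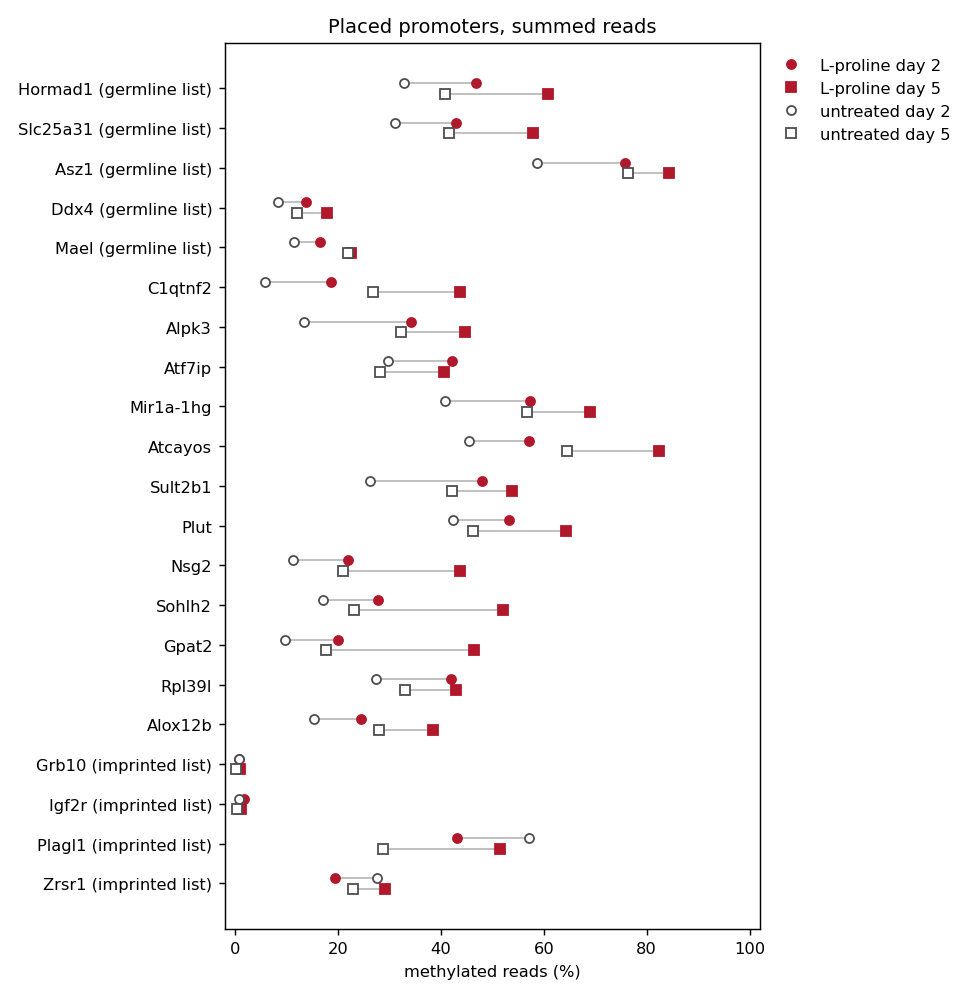
Methylated reads (%) summed over listed CpGs of placed promoters, for the germline list, 12 other promoters with a gain on both days and the imprinted list, in L-proline (filled red) and untreated (open) cells on day 2 (circles) and day 5 (squares), joined within a day. Hormad1 is 13.9 and 20.2 points higher with L-proline, whereas Plagl1 and Zrsr1 change sides between the days.

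The promoter nearest to a loss of 5 points on both days was Apc2, with 5.93% and 5.22% in L-proline cells against 11.8% and 8.70% in untreated cells. Ctxn1, with 0% and 0% against 3.33% and 5.13% over 30 to 78 reads, Tll2, with 0% and 0% against 3.51% and 3.01% over 114 to 145 reads, and Nfatc2, with 1.27% and 0.746% against 4.80% and 3.18%, came next. The 95% Wilson intervals of the 0% values reach 10.4% and 6.31% at Ctxn1 and 3.23% and 2.58% at Tll2. These intervals take the counts at each CpG as independent, so they are too narrow where 1 read covers several CpGs. Just inside the threshold for a gain was Sat2, with 7.06% and 13.2% in L-proline cells against 2.03% and 7.41% in untreated cells.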

How the data were processed

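RRBS was measured in 4 libraries, 1 per treatment and day. The submitters' processing notes name BSMAP 2.88, CASAVA and the mouse build mm9, with no settings. The authors deposited, for each CpG, the fraction of reads methylated (0 to 1) and its coverage, with a minimum of 10 reads; no normalization is given in the sources used here. Methylated reads were taken as fraction times coverage, rounded. The column of the deposited files that holds coverage is text and was read as a whole number. Depth is given in the report. Reads copied by PCR carry no molecular identifier here, so Wilson intervals and Fisher's test reflect counting error and nothing else. Wilson intervals of promoters also count a read at each CpG it covers, which makes them too narrow. The members, gene lists and thresholds were chosen with earlier results of these data known. Library values were compared within each day by Fisher's exact test per CpG (adjusted p under 0.05 and 20 points), and over both days by limma 3.58.1 on the log2 ratio of summed reads in 1 kb tiles (pseudocount 1, day as block). Both were tested on simulated data; there limma, with 1 residual degree of freedom, called more unchanged tiles than its nominal rate, so its unadjusted counts are descriptions.

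Named tiles were the 10 largest gains and 10 largest losses by the smaller daily difference, with at least 50 reads per library; named CpGs were the 5 largest each way, among those called on both days or, failing that, those with 30 or more reads. The planned gene lists needed an annotation of mm9, which was not used here. Promoter sequences of RefSeq GRCm38.p6 were instead placed by matching the spacing of their CpGs with that of 8 or more listed CpGs on the same chromosome, a choice made after seeing the data, as was the 5 point threshold. This placed 7151 windows of 6397 genes; 99.9% of neighbours kept the RefSeq order. Windows of the unlisted or sparsely listed promoters were not placed, and no sequences of chromosome 18 were used. Distances to placed promoters are not distances to the nearest gene. No coordinate was converted between builds.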

Additional observations from a re-analysis of the deposited data

Results flagged for a closer look

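At 2 imprinted promoters the single day differences had opposite signs, and the difference between the days was not tested. Plagl1 was 14.1 points lower with L-proline on day 2 (a difference of -14.1) and 22.7 points higher on day 5 (22.7), over 313 to 441 reads per library. Zrsr1 differed by -8.15 points on day 2 and by 6.34 on day 5, over 210 to 281 reads. With 1 library per treatment and day, the day and the culture cannot be told apart.

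The libraries with vitamin C, which entered no comparison of L-proline with untreated cells, also differed at the gains. In 1 kb tiles where L-proline alone exceeded untreated cells by 10 points or more on both days, cells with L-proline plus vitamin C were on average 7.49 points above cells with vitamin C alone on day 2 and 11.4 points above them on day 5. Over all tiles the differences were 2.99 and 3.44 points. Of all tiles 19.9% were CpG-dense, against 0.981% of the gain tiles, and tiles of like level were not compared.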

How the results depend on the processing

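No paired analysis by replicate was possible because the labels carry no replicate numbers; the libraries were paired by day, and without day as a block limma also called 0 tiles, with a smallest adjusted p of 0.656. The tile fit called 0 tiles in both directions under all 8 alternatives tried, with smallest adjusted p from 0.149 to 0.703. The mean difference of 2.74 points was 2.10 at a minimum of 20 reads, 1.57 at 30 reads, 4.16 with pooled reads and 4.86 as a mean of tiles; each single day gave 2.96 (without the day 2 libraries) and 2.52 (without the day 5 libraries). Fisher calls at 30 reads became 311 up and 3 down for day 2, with 2196 up and 29 down for day 5, and were 0 in all cases with each CpG thinned to 10 reads. Among the 691612 CpGs of at most 300 reads, of 692306, they were 568 up and 6 down for day 2, against 679 and 6. For day 5 they were 4613 up and 48 down, against 4725 and 52. CpGs with repeated gains and losses numbered 3941 and 45 at 20 reads, 1257 and 6 at 30 reads, 39109 and 1956 at 10 points, 2066 and 14 at 30 points, and 25341 and 2485 when thinned. The ratio of gains to losses therefore depended on depth and threshold. By starting level (means of the 2 days), the vitamin C classing gave 10.1 at 5 to 20%, 8.89 at 40 to 60% and 5.84 at 60 to 80%, against 5.61, 10.2 and 8.31 points. Classing by untreated cells of the same day, which enter the difference, gave 13.6 at 40 to 60%, 12.2 at 60 to 80% and a reversed -4.16 at 95% or above. A minimum of 20 reads gave 9.55 at 40 to 60%. By density, from 1 or 2 to 41 or more listed CpGs, counting within 100 bp on either side gave 6.91, 6.37, 3.42, 0.605, 0.141 and 0.0655 points against 6.68, 6.67, 5.69, 2.80, 0.742 and 0.259. CpGs of 20 to 80% gave 8.59, 9.64, 9.99, 9.81, 8.35 and 7.60, and a minimum of 20 reads gave 6.45 and 6.42 in the 2 sparsest classes. By distance from a dense tile, from inside to over 100 kb, CpGs of 20 to 80% gave 8.30, 10.95, 10.5, 10.2, 10.3, 9.78 and 8.44. Defining dense tiles by 30 CpGs gave 5.47, 5.01 and 4.75 in the last 3 classes against 6.38, 6.06 and 5.41. Promoter gains numbered 18 at 10 points and 19 when placed by 12 or more CpGs, against 48. For the changes where a value moved, the cause was not tested. Depth limits single CpGs most, since median coverage was 29 to 37 reads per library.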

Other observations

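The 10 named gain tiles can also be read in the vitamin C libraries, which did not choose them. Cells with L-proline plus vitamin C had medians of 32.5% and 31.7% on day 2 and day 5 in these tiles, against 22.9% and 17.6% in cells with vitamin C alone. They were higher on both days in 8 of the 10 tiles and lower on both in 1. In the tile at 69757001 of chromosome 10, L-proline plus vitamin C gave 19.6% and 22.7% against 2.75% and 2.84% with vitamin C alone. Of the 10 named loss tiles, 8 could be read in these libraries. Their median difference, L-proline plus vitamin C minus vitamin C, was -2.20 and -8.14 points. It was below 0 on both days in 5 and above 0 on both in 1. In the 7 readable tiles at least 10 points lower with L-proline alone on both days, the mean difference was 1.28 and 5.09 points. Of the germline promoters, Asz1 had 50.2% and 42.3% with L-proline plus vitamin C against 42.9% and 29.1% with vitamin C alone, Hormad1 had 23.3% and 22.5% against 25.1% and 14.6%, and Slc25a31 had 20% and 15.7% against 25.6% and 16.1%. Ddx4 had 5.09% and 4.96% against 3.90% and 3.68%, and Mael had 3.63% and 6.79% against 4.20% and 3.54%. Asz1 and Ddx4 were thus higher on both days, Slc25a31 was lower on both, and Hormad1 and Mael were lower on day 2 and higher on day 5; whether the difference with L-proline changes with vitamin C present was not tested.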
